A study of Homo sapiens with 6 samples.

Results

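Integrins are cell-surface receptors made of 1 alpha and 1 beta subunit that tie the extracellular matrix, or a neighbouring cell, to the actin or keratin cytoskeleton. Here 10 of the 26 integrin subunit genes in a count table of 58735 genes were examined: the alpha subunits ITGAV, ITGA5, ITGA3, ITGA7, ITGA4 and ITGA9 and the beta subunits ITGB3, ITGB5, ITGB4 and ITGB7. They were taken by gene symbol, all 10 had a row in the table, and 9 passed the filter on low counts. The table holds RNA-Seq read counts of H1155, a line of neuroendocrine large cell lung cancer, from 3 libraries labelled WT (wildtype) and 3 labelled GFI1-KO (GFI1 knockout), all untreated and grown in the same serum-containing medium. GFI1 is a zinc-finger transcriptional repressor. According to the study's methods, the knockout cells were sorted as single-cell clones after CRISPR/Cas9 cutting in the GFI1 promoter region, and the comparison asks which transcripts differ once GFI1 is deleted. Whether the 3 libraries of a group came from separate cultures or clones is not given in the sources used here, so that the p-values below measure the spread between these libraries only, and a difference between clones cannot be told apart from a difference between genotypes.

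The alpha subunit largely sets what an integrin binds. ITGAV and ITGA5 form receptors that read the Arg-Gly-Asp (RGD) motif of fibronectin, vitronectin and related proteins, ITGAV with ITGB1, ITGB3, ITGB5 and other beta subunits and ITGA5 with ITGB1. ITGA3 and ITGA7 pair with ITGB1 as laminin receptors. ITGB4 pairs with ITGA6 in the hemidesmosome, the junction that anchors epithelial keratin to laminin. ITGA4 and ITGA9 bind VCAM1, fibronectin, tenascin or related ligands, ITGA4 with ITGB1 or the leukocyte subunit ITGB7, ITGA9 with ITGB1. Epithelial cells that detach from matrix commonly lose signals from such receptors, and cells of neuroendocrine lung cancers often grow in suspension.

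GFI1 binds DNA through the core AATC, read on either strand as AATC or GATT. RefSeq promoters (GRCh38.p14, 250 bases before to 50 after a start site) were at hand for ITGAV, ITGA5, ITGB5, ITGA4 and ITGB7, 8 promoters in all. Those of ITGA5 and ITGAV and the outermost of 3 for ITGB5 are shown, because ITGA5 and ITGB5 were among the subunits with the largest differences and ITGAV was the most abundant one. Each reads 5′ to 3′ on the strand of its gene, with the core in capitals on either strand. The ITGA5 promoter lies at chr12:54419217-54419516 (minus strand), the first of 2 for ITGAV at chr2:186589806-186590105 (plus strand) and that of ITGB5 at chr3:124901369-124901668 (minus strand).
ITGA5: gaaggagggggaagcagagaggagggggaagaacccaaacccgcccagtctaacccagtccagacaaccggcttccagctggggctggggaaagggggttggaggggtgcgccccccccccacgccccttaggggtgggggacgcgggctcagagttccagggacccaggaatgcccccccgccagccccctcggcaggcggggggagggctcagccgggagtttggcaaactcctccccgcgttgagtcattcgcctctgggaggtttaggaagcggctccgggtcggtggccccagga
ITGAV: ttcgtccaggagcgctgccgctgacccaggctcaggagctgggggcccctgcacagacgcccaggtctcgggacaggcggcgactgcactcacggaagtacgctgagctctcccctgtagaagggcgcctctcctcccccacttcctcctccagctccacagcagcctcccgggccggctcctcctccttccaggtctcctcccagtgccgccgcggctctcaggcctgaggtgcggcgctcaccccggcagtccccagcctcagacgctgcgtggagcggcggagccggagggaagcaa
ITGB5: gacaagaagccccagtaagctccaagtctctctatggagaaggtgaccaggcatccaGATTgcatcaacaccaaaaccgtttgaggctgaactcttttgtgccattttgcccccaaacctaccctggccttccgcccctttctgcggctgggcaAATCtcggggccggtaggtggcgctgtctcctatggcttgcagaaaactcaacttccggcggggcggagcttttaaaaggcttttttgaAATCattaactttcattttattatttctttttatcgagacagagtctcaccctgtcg
Neither the ITGA5 nor this ITGAV sequence held an AATC core, and their GC contents were 69.3% and 70.7%, against a median of 58.7% over all promoters. The ITGB5 sequence held 3 cores at a GC content of 49.7%. The other ITGB5 promoters, not shown, held 1 core at a GC content of 59.7% and 0 cores at 75.7%. A second ITGAV promoter in the table, at chr2:186599955-186600254 and not shown, held 2 cores at a GC content of 41.3%. Of the 8 member promoters 4 held the core at least once, while 24126 of 34943 promoters in the genome (69%) did. The longer AATCAC, which contains AATC and was sought on both strands, occurred in 0 of the 8 and in 10.2% of all promoters. These counts describe letters in windows of 300 bases and nothing outside them.

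Library totals were 14882914 to 16102215 counts in WT and 17503794 to 17692882 in GFI1-KO, so that every GFI1-KO library was deeper than every WT library. TMM scaling factors lay between 0.9935 and 1.006. GFI1 itself counted 153, 106 and 125 reads across the WT-labelled libraries and 174, 188 and 170 across those labelled GFI1-KO. The log2 fold change of GFI1, taken as GFI1-KO minus WT as everywhere below, was 0.31 ± 0.12 (SE, n = 3 per group, adjusted p = 0.0273, edgeR quasi-likelihood F test, Benjamini-Hochberg adjusted), and the adjusted p was 0.128 with DESeq2. With offsets for GC content and gene length, described below, it was -0.01 (adjusted p = 0.966, edgeR). Thus the GFI1 transcript did not fall with the knockout label. The study also shows an immunoblot of GFI1 protein for its H1155 cells with the deletion, while the counts here measure RNA only. The extent of the promoter deletion is not given in the sources used here, and every direction below rests on the labels. Of 10 neuroendocrine markers 9 were above 3 counts in every library, and their summed CPM (counts scaled to the library total) was 2011 to 2052 in WT and 2429 to 2474 in GFI1-KO. Leukocyte markers summed to at most 0.7913 CPM in any library, with 4 of 6 (PTPRC, CD3E, CD14 and LYZ) at or under 3 counts throughout. Platelet markers summed to 4.333 to 6.249 in WT and 4.095 to 5.77 in GFI1-KO, endothelial markers to 27.08 to 30.43 and 13.31 to 14.92 (KDR, VWF and TEK at or under 3 counts), fibroblast markers to 190.5 to 195.8 and 124.6 to 129.8 (DCN at or under 3 counts), and 6 epithelial markers to 214 to 224.6 and 246.7 to 270.3 (KRT19 at or under 3 counts). The sums hide single markers that went both ways. Of the 10 neuroendocrine markers 6 were called higher and 4 lower, and of the 6 epithelial markers 1 higher and 2 lower. Among all tested genes 36.5% were called higher and 35.9% lower. The part of these markers in the integrin results was not tested. In such bulk samples, fewer cells that carry a transcript and less of it per cell cannot be told apart.

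Of the 9 tested subunits 6 were higher in GFI1-KO (ITGB3, ITGA5, ITGB5, ITGA3, ITGB4 and ITGAV), 1 was lower (ITGA7), and ITGA4 and ITGA9 did not pass the test. Their log2 fold changes ran from -0.43 to 1.57 with a median of 0.79, where the median over all 17514 tested genes was 0.00. The difference between the groups was broad: 72.4% of all tested genes were called, 36.5% as higher and 35.9% as lower, and in 74.4% no normalized count of either group fell within the other. The 7 of 9 subunits called, and the 6 of 9 whose groups did not overlap, are close to the shares among all genes. The 6 of 9 that were higher stand beside 36.5% of all genes, a description with no test.

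**Figure D1:**
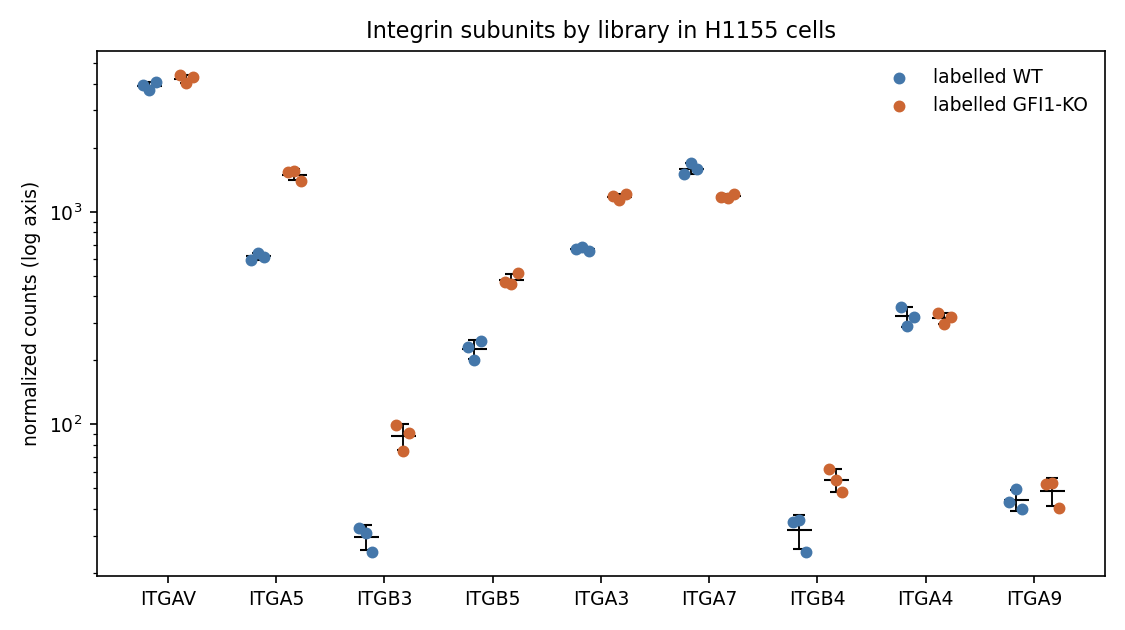
Normalized counts (log axis) of the 9 tested integrin subunits in each of 3 libraries labelled WT (blue) and 3 labelled GFI1-KO (orange), with the mean and SD of each group in black. The groups stand apart for ITGA5, ITGB3, ITGB5, ITGA3, ITGA7 and ITGB4 and overlap for ITGAV, ITGA4 and ITGA9.

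The fold changes of all genes followed the GC content of their transcripts. Across 17415 genes, Spearman's rho between log2 fold change and GC content was 0.587, a value across genes, which are not independent replicates. Genes of 35 to 40% GC had a median log2 fold change of -0.54, and genes of 60 to 65% GC one of 0.66. Because the subunits range from 38.06% GC (ITGAV) to 62.95% (ITGB4), the fold change of each tested subunit is given also from a fit with offsets for GC content and gene length, which brought rho to -0.00186. A rho near 0 follows from the construction, since the offsets were fitted to the same libraries. They also take out any difference between the groups that follows GC content or length, whatever its source. In that fit 33.2% of all genes were higher and 27.2% lower, and again 6 of the 9 subunits were higher and 1 lower; the median was 0.40. ITGA4 took the place of ITGB4 among the higher ones. The part of GC content in each fold change was not tested beyond this fit.

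**Figure D2:**
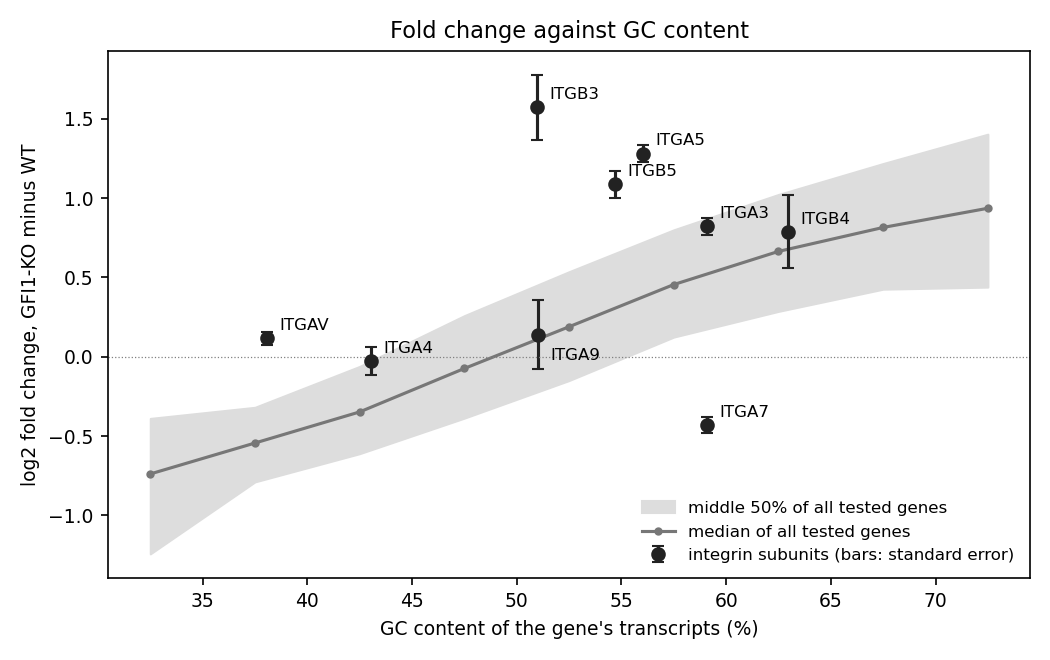
Log2 fold change (GFI1-KO minus WT) against the GC content of a gene's transcripts in percent. The grey line and band are the median and the middle 50% of all tested genes in bins of 5 percentage points, and the points are the 9 tested integrin subunits with their standard errors; ITGB3, ITGA5, ITGB5 and ITGAV lie well above the band, ITGA3 and ITGA4 near its upper edge, and ITGA7 below it.

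ITGAV, the alpha v chain of RGD receptors, was the most abundant of the 10 subunits (ENSG00000138448; hg38 chromosome 2, 186590065 to 186680901, plus strand). It had 3834, 3374 and 3866 counts in WT and 4601, 4251 and 4550 in GFI1-KO, which is 3906 ± 162 and 4232 ± 183 normalized counts (each SD, n = 3). The highest WT library, at 4058 normalized counts, lay above the lowest GFI1-KO library, at 4028, so that the groups overlapped. The log2 fold change was 0.12 ± 0.04 (SE, adjusted p = 0.0084, edgeR). This small difference was not called without WT replicate 2 (0.08, adjusted p = 0.0779, edgeR) or without GFI1-KO replicate 1 (0.09, adjusted p = 0.0588, edgeR). With GC and length offsets it was 0.77 (adjusted p = 7.5e-16, edgeR); ITGAV has the lowest GC content of the 10, and genes of 35 to 40% GC had a median of -0.54.

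ITGA5, the alpha chain of the classical fibronectin receptor, showed the second-largest difference (ENSG00000161638; chromosome 12, 54395261 to 54419460, minus strand). Its counts were 580, 579 and 585 in WT and 1612, 1641 and 1487 in GFI1-KO. All 3 GFI1-KO libraries lay far above the WT libraries, at 1497 ± 84.9 (SD, n = 3) against 616 ± 23.6 normalized counts (SD, n = 3). ITGA5 rose 2.43-fold, a log2 fold change of 1.28 ± 0.06 (SE, adjusted p = 4.9e-17, edgeR). With GC and length offsets the value was 1.01 (adjusted p = 5.3e-14, edgeR). 2 antisense genes span the whole of ITGA5 and had at most 3 counts each in any library, so that few reads were counted for them. Reads left out because they fall on more than 1 gene would not show in these counts.

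The beta chains of vitronectin-type receptors rose as well. ITGB3, known as the beta chain of the platelet fibrinogen receptor and the partner of ITGAV in the vitronectin receptor, lies on chromosome 17 (ENSG00000259207; 47253846 to 47311816, plus strand). It had 32, 28 and 24 counts in WT and 104, 79 and 97 in GFI1-KO. Its summed counts, 84 with a 95% Poisson interval of 67.0 to 104 and 280 with 248 to 315, did not overlap, an interval that covers counting error only. ITGB3 rose 2.97-fold, from 29.7 ± 3.96 to 88.4 ± 12.4 normalized counts (each the mean ± SD of n = 3 libraries), with a fold change on the log2 scale of 1.57 ± 0.21 (SE, adjusted p = 1.5e-07, edgeR) and of 1.499 with GC and length offsets (adjusted p = 9.7e-07, edgeR). This was the largest fold change of the 9 and at a low level, and the counts are uncertain: 34.9% of the 50-base words of ITGB3 occur also in other genes, above all in AC068234.1, an overlapping gene on the same strand that was listed at 0 in all 6 libraries.

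ITGB5, another beta partner of ITGAV for vitronectin, was the most abundant of the 4 beta subunits described (ENSG00000082781; chromosome 3, 124761948 to 124901418, minus strand). Counts were 225, 181 and 234 in WT and 488, 485 and 546 in GFI1-KO. The lowest GFI1-KO library, with 459.6 normalized counts, stood above the highest WT library, with 245.6. ITGB5 rose 2.12-fold, from 226 ± 23.0 to 480 ± 29.9 normalized counts (each the mean ± SD of n = 3 libraries), with a log2 fold change of 1.09 ± 0.09 (SE, adjusted p = 1.2e-11, edgeR) and of 0.88 with GC and length offsets (adjusted p = 3.8e-09, edgeR). Of its 50-base words 0% occurred in transcripts of other genes, while copies with mismatches were not sought.

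The laminin-binding alpha chains moved in opposite directions. ITGA3, an epithelial laminin receptor chain (ENSG00000005884; chromosome 17, 50055968 to 50090481, plus strand), had 650, 615 and 622 counts in WT and 1239, 1200 and 1291 in GFI1-KO. It rose 1.77-fold, from 666.4 ± 13.99 to 1178 ± 39.0 normalized counts (each the mean ± SD of n = 3 libraries), with a fold change on the log2 scale of 0.82 ± 0.05 (SE, adjusted p = 2.1e-13, edgeR). With GC and length offsets the rise was 0.40 (adjusted p = 2.5e-07, edgeR). ITGA7, the laminin receptor chain best known from muscle (ENSG00000135424; chromosome 12, 55684568 to 55716043, minus strand), had 1468, 1527 and 1512 counts in WT and 1230, 1222 and 1292 in GFI1-KO. Although the GFI1-KO libraries were deeper, all 3 held fewer ITGA7 reads than any WT library. ITGA7 fell from 1593 ± 93.8 to 1182 ± 30.2 normalized counts (each the mean ± SD of n = 3 libraries), with a fold change on the log2 scale of -0.43 ± 0.05 (SE, adjusted p = 8.4e-09, edgeR), and of -0.87 with GC and length offsets (adjusted p = 3.2e-14, edgeR). ITGA3 and ITGA7 have nearly the same GC content, 59.08% and 59.07%, and genes of 55 to 60% GC had a median log2 fold change of 0.46.

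ITGB4, the hemidesmosome beta chain with a long cytoplasmic tail, was scarce (ENSG00000132470; chromosome 17, 75721328 to 75757818, plus strand). It had 34, 32 and 24 counts in WT and 65, 58 and 51 in GFI1-KO. The groups did not overlap, and the normalized counts were 31.8 ± 5.74 (SD, n = 3) and 55.0 ± 6.97 (SD, n = 3). The log2 fold change of 0.79 ± 0.23 (SE, adjusted p = 0.00354, edgeR) passed the test, but the value with GC and length offsets, 0.20 (adjusted p = 0.469, edgeR), did not. ITGB4 has the highest GC content of the 9 tested subunits, and genes of 60 to 65% GC had a median of 0.66. The span of its gene overlaps by 6225 bases with that of GALK1 on the other strand. GALK1 had 355 to 385 counts in WT and 648 to 755 in GFI1-KO. Without a stated strand setting, reads from sequence in transcripts of both genes cannot be told apart. ITGB4 shared only 0.265% of its 50-base words, sought on both strands, with transcripts of any other gene. Its partner ITGA6 rose from 270.2 ± 5.84 to 575 ± 16.8 normalized counts (each the mean ± SD of n = 3 libraries; adjusted p = 3.3e-13, edgeR).

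The alpha 4 and alpha 9 chains, receptors for VCAM1, tenascin and related ligands, did not pass the test. ITGA4 (ENSG00000115232; chromosome 2, 181457202 to 181536187, plus strand) had 349, 261 and 305 counts in WT and 350, 312 and 341 in GFI1-KO. Its normalized counts of 322 ± 34.3 (SD, n = 3) and 317 ± 19.3 (SD, n = 3) overlapped, with a log2 fold change of -0.03 ± 0.09 (SE, adjusted p = 0.793, edgeR). With GC and length offsets the direction turned, to 0.37 (adjusted p = 6.8e-04, edgeR), and genes of 40 to 45% GC, where ITGA4 lies at 43.03%, had a median of -0.35. Its counts are uncertain, since 25.9% of its 50-base words occur also in other genes, CERKL among them. ITGA9 (ENSG00000144668; chromosome 3, 37452115 to 37823514, plus strand) had 42, 45 and 38 counts in WT and 55, 56 and 43 in GFI1-KO, and the groups overlapped. The log2 difference came to 0.14 ± 0.22 (SE, adjusted p = 0.578, edgeR), so that a difference of this size was not detectable at this depth, and the value with GC and length offsets was 0.13 (adjusted p = 0.626, edgeR). The span of the antisense gene ITGA9-AS1 overlaps that of ITGA9 by 78083 bases, introns included. ITGA9-AS1 had 16 to 25 counts in WT and 28 to 35 in GFI1-KO. Of the 50-base words of ITGA9 7.05% occur also in ITGA9-AS1, and reads from that shared sequence cannot be told apart without strand.

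ITGB7, the beta chain of the lymphocyte homing receptor, did not pass the filter (ENSG00000139626; chromosome 12, 53191318 to 53207307, minus strand). It had 3, 0 and 0 counts in WT and 0, 0 and 2 in GFI1-KO. Summed over 3 libraries these are 3 counts (95% Poisson interval 0.619 to 8.77) and 2 counts (0.242 to 7.22), both at or under the floor of 3 counts that a library can show, and no fold is given. With 3 counts as the limit that a count of 0 allows, the libraries at 0 could hold up to 0.0381 to 0.0450 FPKM. The counts of ITGB7 are uncertain, since 32.3% of its 50-base words also occur in ZNF740, which overlaps it on the other strand with 650 to 1210 counts.

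**Figure D3:**
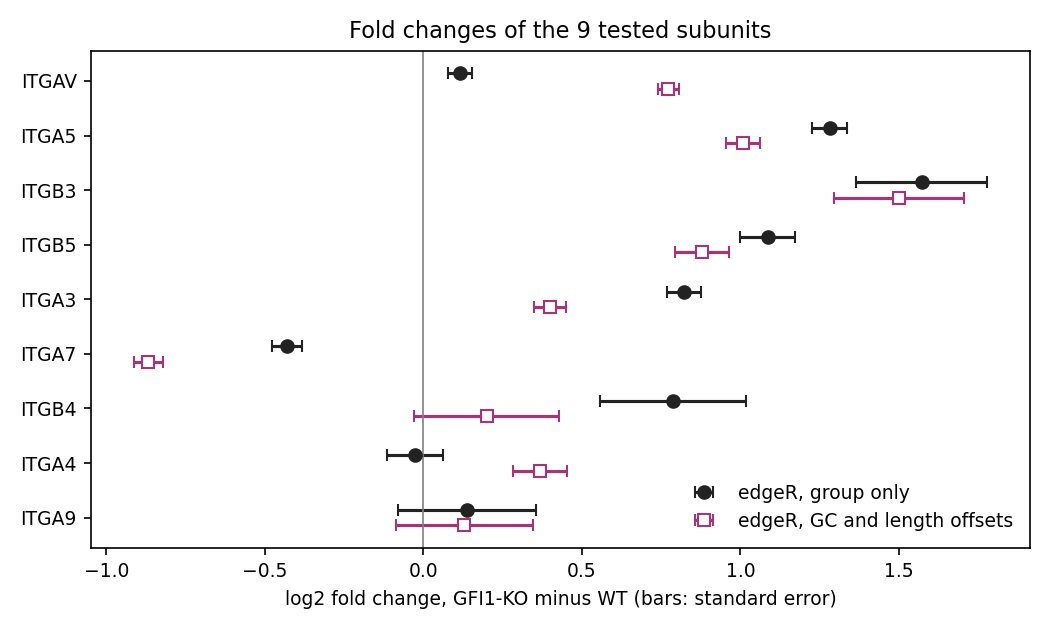
Log2 fold change (GFI1-KO minus WT) of the 9 tested integrin subunits, with standard errors, from edgeR with the group alone (filled circles) and with GC and length offsets (open squares). The offsets raise ITGAV from 0.12 to 0.77 and ITGA4 from -0.03 to 0.37, and lower ITGB4 from 0.79 to 0.20 and ITGA7 from -0.43 to -0.87.

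Per length, the levels of the subunits differed widely. In FPKM (counts per kilobase of the deposited gene length, scaled to the library total), ITGAV stood first in WT with 28.9 ± 1.20 (SD, n = 3). ITGA7 followed with 15.2 ± 0.898 (SD, n = 3), then ITGA5 with 4.94 ± 0.191 (SD, n = 3) and ITGA3 with 4.13 ± 0.0863 (SD, n = 3). ITGA4 at 2.47 ± 0.262 (SD, n = 3) and ITGB5 at 2.12 ± 0.217 (SD, n = 3) overlapped in their ranges. So did ITGB3 at 0.410 ± 0.0546 (SD, n = 3) with ITGA9 at 0.324 ± 0.0372 (SD, n = 3), and ITGA9 with ITGB4 at 0.286 ± 0.0514 (SD, n = 3). ITGB7 was last at 0.0139 ± 0.0240 (SD, n = 3).

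In GFI1-KO the order changed in the middle. ITGAV remained first at 30.9 ± 1.33 FPKM (SD, n = 3), while ITGA5 at 11.8 ± 0.665 (SD, n = 3) and ITGA7 at 11.1 ± 0.291 (SD, n = 3) now overlapped. ITGA3 came next with 7.21 ± 0.241 (SD, n = 3). ITGB5 at 4.46 ± 0.281 (SD, n = 3) now stood above ITGA4 at 2.40 ± 0.146 (SD, n = 3), and their ranges no longer overlapped. ITGB3 at 1.21 ± 0.168 (SD, n = 3), ITGB4 at 0.488 ± 0.0615 (SD, n = 3) and ITGA9 at 0.353 ± 0.0512 (SD, n = 3) were also separate from each other. By FPKM, ITGAV lay at the 91st percentile of all tested genes in WT and ITGA5 moved from the 52nd to the 73rd.

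The make-up of the family was then compared as shares of summed FPKM, which do not depend on the library scaling. Among all alpha subunits, ITGAV held 42.83, 40.47 and 42.96% in the WT libraries and 39.42, 37.81 and 39.3% in the GFI1-KO libraries. ITGA5 went from 7.02, 7.53 and 7.04% to 15.0, 15.8 and 13.9%, and ITGA7 from 22.1 ± 1.30% (SD, n = 3) to 13.99 ± 0.401% (SD, n = 3). ITGA3 went from 6.02 ± 0.203% (SD, n = 3) to 9.06 ± 0.247% (SD, n = 3). The groups did not overlap for these 4 shares. Each gave p = 0.1 in a two-sided exact permutation test, the smallest p that 3 against 3 libraries allow. Such separation was common. It held also for the shares of ITGA1, ITGA2, ITGA2B, ITGA4, ITGA6, ITGA8, ITGA10, ITGAE and ITGAM, but not for ITGA9, ITGA11, ITGAD, ITGAL and ITGAX. By normalized counts the groups were apart for 74.4% of all tested genes. The share of ITGA4 changed by -0.589 percentage points, although its level was not called. Shares of a fixed total are not independent of each other. The share of ITGAV depended on the GC correction: with the offsets it was 10.55 percentage points higher in GFI1-KO, not 3.24 lower. The gain of ITGA5 was 7.70 percentage points and, with the offsets, 4.39. The shares of ITGA7 and ITGA3 are given without the offsets only.

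The log2 ratio of ITGA5 to ITGAV was -2.609, -2.427 and -2.608 in WT and -1.397, -1.257 and -1.498 in GFI1-KO, a difference of 1.16 (exact permutation p = 0.1, the smallest possible). Under the GC and length offsets this difference was 0.233, with the groups still apart (exact permutation p = 0.1). On a linear scale ITGA5 had 0.171 times the FPKM of ITGAV in WT and 0.383 times in GFI1-KO. Among beta subunits, ITGB1, the common partner, held 93.6 ± 0.350% (SD, n = 3) of summed FPKM in WT, against 86.0 ± 0.582% (SD, n = 3). ITGB5 held 4.48, 3.92 and 4.75% in WT and 8.82, 9.10 and 9.80% in GFI1-KO, a gain of 4.86 percentage points that was 1.83 with the offsets. ITGB3 went from 0.847 ± 0.116% (SD, n = 3) to 2.50 ± 0.297% (SD, n = 3). The log2 ratio of ITGB5 to ITGB3 averaged 2.38 ± 0.313 (SD, n = 3) across WT and 1.89 ± 0.198 (SD, n = 3) across GFI1-KO libraries, with groups apart. That difference of -0.484 was -0.306 without WT replicate 3 (exact permutation p = 0.2). Summed over all beta subunits, FPKM was 48.4 ± 0.315 (SD, n = 3) and 48.3 ± 1.11 (SD, n = 3), which overlapped, and over all alpha subunits 68.6 ± 1.11 (SD, n = 3) and 79.6 ± 1.67 (SD, n = 3), which did not. These sums, and the shares of ITGB1 and ITGB3, are given without the offsets only. The log2 fold change of ITGB1, the bulk of the beta sum, was -0.11 without the offsets and 0.42 with them.

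**Figure D4:**
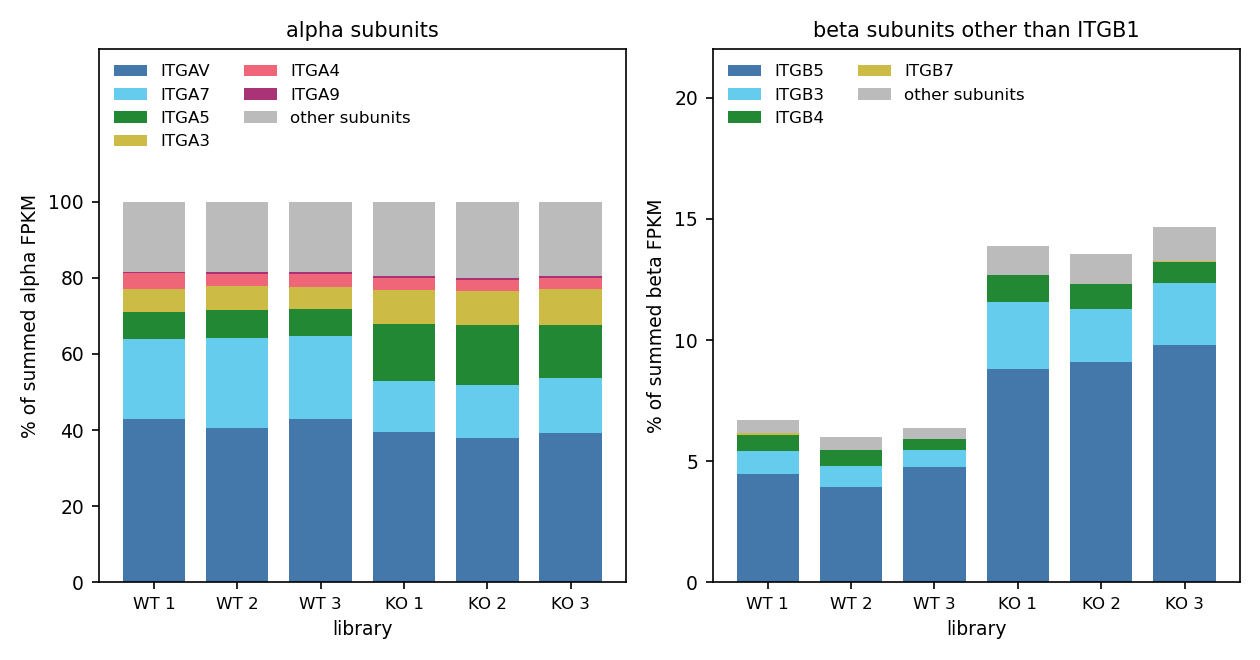
Share of summed FPKM held by each integrin subunit in the 6 libraries, among alpha subunits (left) and among beta subunits (right, without ITGB1, which holds 93.6% in WT and 86.0% in GFI1-KO on average). ITGA5 and ITGA3 take larger shares and ITGA7 and ITGAV smaller ones in the 3 GFI1-KO libraries, and ITGB5 and ITGB3 take larger shares. All shares are drawn without GC and length offsets, under which that of ITGAV was larger in GFI1-KO.

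The other 16 integrin genes were read beside these. Among all tested genes 36.5% were called higher and 35.9% lower, or 33.2% and 27.2% with GC and length offsets. Of ITGA1, ITGA2, ITGA6, ITGB1, ITGB6 and ITGB8, 5 were tested, 3 being higher and 2 lower, with a median of 0.84; with GC and length offsets 4 were higher and 0 lower and the median was 1.29. ITGA1, a collagen receptor chain, was called lower at -0.76 (adjusted p = 1.5e-08, edgeR) but not with offsets, at -0.08 (adjusted p = 0.436, edgeR). The counts of ITGA1 are uncertain, since 13.2% of its 50-base words occur also in other genes. ITGB1 averaged 4488 ± 24.0 (SD, n = 3) normalized counts across WT and 4158 ± 80.7 (SD, n = 3) across GFI1-KO, and the log2 difference of -0.11 (adjusted p = 0.00383, edgeR) turned to 0.42 (adjusted p = 1.8e-11, edgeR) with GC and length offsets, much as ITGAV moved up. Of the remaining 10 integrin genes 8 were tested, of which 4 passed as higher and 1 as lower; the median was 0.36. With the offsets 2 were higher and 2 lower, and the median was 0.03. ITGA11, a collagen receptor chain, rose by 0.42 (adjusted p = 2.7e-04, edgeR), and ITGAX, a myeloid chain, by 0.40 (adjusted p = 0.0121, edgeR) but with offsets by 0.11 (adjusted p = 0.521, edgeR). ITGAE, the intraepithelial lymphocyte chain, had a log2 fold change of -0.07 (adjusted p = 0.385, edgeR). ITGA2B, the platelet partner of ITGB3, averaged 43.3 ± 12.9 (SD, n = 3) normalized counts across WT and 16.7 ± 4.68 (SD, n = 3) across GFI1-KO and was called lower (adjusted p = 2.1e-04, edgeR).

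The ligands and partners of these receptors are given as counts to be read beside the 72.4% of all tested genes that were called, 36.5% as higher and 35.9% as lower. With offsets these shares were 33.2% higher and 27.2% lower. Of 22 RGD and vitronectin-type ligands 16 were tested, 10 higher and 4 lower, and their median log2 fold change was 0.84 (9 higher and 4 lower with offsets). FN1, the fibronectin gene and ligand of the ITGA5 receptor, rose from 2328 ± 52.9 to 11360 ± 354 normalized counts (each the mean ± SD of n = 3 libraries), with a fold change on the log2 scale of 2.29 (adjusted p = 3.5e-26, edgeR). TNC, tenascin C, rose by 1.67 and TGFB1, whose latent form is bound by ITGAV receptors, by 1.66 (adjusted p = 1.2e-21 and 1.3e-21, edgeR), or by 1.54 and 0.97 with offsets. THBS1, the matrix protein thrombospondin 1, fell by 1.99 on the log2 scale and NPNT, nephronectin, fell by 0.89 (adjusted p = 2.0e-25 and 1.4e-11, edgeR). VTN, the vitronectin gene, did not pass the filter, with 8.17 counts on average over the libraries. Of 13 laminin chains and netrins, ligands of ITGA3, ITGA7 and ITGB4 receptors, all were tested, 9 higher and 2 lower (7 and 4 with offsets), with a median of 0.28. LAMA2, a laminin chain known from muscle basement membrane, rose by 3.76, LAMB2 by 1.52 and LAMB3, a chain of the hemidesmosome ligand laminin 332, by 1.33 (adjusted p = 5.8e-28, 1.5e-19 and 1.1e-18, edgeR). With offsets these rises were 4.12, 1.05 and 0.83. LAMA4 fell by 1.83 on the log2 scale and LAMC1, the commonest gamma chain, fell by 0.18 (adjusted p = 3.5e-11 and 6.2e-05, edgeR), against -1.67 and -0.08 with offsets.

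Of 12 ligands of the alpha 4 and alpha 9 chains 11 were tested, with 6 higher and 4 lower and a median of 0.36, which became -0.15 with GC and length offsets. FN1, TNC and SPP1 stand in this list and in the RGD list. The counts of these ligands and of the tail binders below stand beside 36.5% of all tested genes as higher and 35.9% as lower. With offsets those shares were 33.2% and 27.2%. EMILIN1, a matrix glycoprotein bound by these chains, rose by 1.12 (adjusted p = 4.2e-13, edgeR), or by 0.32 with the offsets. SVEP1, a ligand of ITGA9, fell by 0.47 on the log2 scale (adjusted p = 6.1e-05, edgeR), with -0.29 under the offsets. Inside the cell, 27 binders of integrin tails and focal adhesion proteins gave 26 tested genes, 20 higher and 5 lower, with a median of 0.55. Under those offsets 14 were higher and 3 lower and the median came to 0.20. SHARPIN, an inhibitor of integrin activation, rose by 1.38 (adjusted p = 7.1e-17, edgeR; 0.61 with offsets), CIB1, which binds the ITGA2B tail, by 0.92 (0.47 with offsets) and FERMT3, the blood-cell kindlin, by 0.89 (adjusted p = 2.2e-07, edgeR; 0.22 with offsets, adjusted p = 0.118). FERMT1, the epithelial kindlin, fell by 0.29 (log2; adjusted p = 0.0492, edgeR; -0.08 with offsets, adjusted p = 0.594). FERMT2, the kindlin of adherent cells, fell by 0.38 (log2; adjusted p = 1.0e-07, edgeR) but rose by 0.21 with the offsets (adjusted p = 3.7e-04, edgeR). PTK2, the focal adhesion kinase gene, fell by 0.28 (log2; adjusted p = 5.8e-08, edgeR), and the value was -0.01 with the offsets (adjusted p = 0.910, edgeR).

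The hemidesmosome list, which goes with ITGB4, had 4 of 7 genes tested, 3 higher and 1 lower, and with offsets 4 higher and 0 lower. Of all tested genes 36.5% were higher and 35.9% lower, or 33.2% and 27.2% with offsets. PLEC, the plakin that ties ITGB4 to keratin, rose from 4728 ± 169 to 10940 ± 143 normalized counts (each the mean ± SD of n = 3 libraries), and CD151, a tetraspanin partner of laminin receptors, from 1495 ± 60.6 (SD, n = 3) to 3370 ± 107 (SD, n = 3), with adjusted p = 5.7e-21 and 4.6e-19 (edgeR). Their log2 fold changes were 1.21 and 1.17, or 0.53 and 0.53 with offsets. DST, the other plakin, fell by 0.46 on the log2 scale (adjusted p = 2.7e-12, edgeR) and rose by 0.08 with offsets (adjusted p = 0.0365, edgeR). COL17A1, KRT5 and KRT14, further parts of epidermal hemidesmosomes, did not pass the filter.

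The genes whose levels followed ITGAV and ITGA5 most closely over the 6 libraries were sought among 11220 protein-coding genes with at least 100 counts on average, by the root mean square distance of log2 CPM centred on each gene's mean. For ITGAV these were KANSL1 at 0.0197, AP3M2 at 0.0211 and ZNF217 at 0.0231. For ITGA5 they were RRBP1 at 0.0409, ENGASE at 0.0420 and HIST1H4I at 0.0426. The 3 genes near ITGAV had log2 fold changes of 0.09 to 0.10 and those near ITGA5 of 1.23 to 1.36, and the distances describe likeness over 6 points from 2 groups and no more.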

How the data were processed

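RNA-Seq libraries of H1155 cells, 3 labelled WT and 3 labelled GFI1-KO, were analysed. The authors deposited raw read counts per gene with gene symbols, hg38 positions and gene lengths. The study's methods name Hisat2 and featureCounts, while the submitters' processing notes name Bowtie2 and HTSeq with hg38; the strand setting and the rule for reads matching several places are not given in the sources used here. Counts were tested with edgeR 4.0.16 (R 4.3.3): TMM factors, filterByExpr and the quasi-likelihood F test, with Benjamini-Hochberg adjusted p-values over all 17514 tested genes, called at an adjusted p of at most 0.05 with no fold minimum. A standard error is the absolute log2 fold change over the root of its F value. In simulated counts for 3 against 3 libraries, 200 of 17514 genes carried a true difference, each of 1 on the log2 scale. Of these 94% were recovered, and 7.84% of calls were false. In the data 72.4% of tested genes were called, so that neither rate can be carried over to the calls here. Recovery of smaller differences, such as that of ITGAV, was not simulated. Normalized counts are counts per TMM library size, times its mean over the libraries. Offsets for GC content and length came from natural splines with 5 degrees of freedom fitted to each library, with GC content from GENCODE 44 transcripts. Genes sharing over 10% of their 50-base words with others are called uncertain. The spread of the fit, as edgeR's common coefficient of biological variation, was 0.0372. Floors of 3 counts and 95% Poisson intervals cover counting error only, and counts that PCR has copied are not independent molecules. No 2 libraries of a group were alike within sampling noise (chi-square of 1.88 to 5.10 per gene). Same-numbered libraries did not deviate together (correlations from -0.00323 to 0.0230), so that the groups were compared without pairing. Alternatives were DESeq2 1.42.0, limma-voom (limma 3.58.1), other scaling factors and filters, the replicate block, GC and length offsets and each library left out. The members and lists were chosen with earlier results of these data known. Named genes were all members, other integrin genes averaging at least 100 counts, up to 3 called genes at each end of every other list with at least 100 counts, and the 3 genes nearest to ITGAV and ITGA5; ITGA2B, VTN, GALK1 and others below that count were named for their link to a member, after their values were seen.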

Additional observations from a re-analysis of the deposited data

How the results depend on the processing

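The number of the 9 tested subunits that differed was 6 or 7 in every setting tried, with 5 or 6 higher and 1 (ITGA7) lower, and leaving out single libraries gave 6 to 7. With the replicate block it was 7, 6 of them higher and 1 lower, and the block changed no call of a member. The replicate numbers carry no pairing here. In the main fit 72.4% of all tested genes were called, 36.5% as higher and 35.9% as lower. The 6 or 7 of 9 called in either direction are close to that share of all genes. ITGAV was not called with upper-quartile factors (log2 fold change 0.073, adjusted p = 0.0898, edgeR), without WT replicate 2 or without GFI1-KO replicate 1, and ITGB4 was not called with GC and length offsets, with 0.200, or with these and the block, with 0.204. ITGA4 turned to 0.367 with them and to 0.370 with the block as well, and ran from -0.105 to 0.049 when single libraries were left out. The change of the ITGAV share among alpha subunits turned to 10.55 percentage points with offsets. Of the remaining integrin subunits 3 were called at an adjusted p of at most 0.01, against 5 at 0.05, and the share of all genes at 0.01 is not given here. The causes were not tested. Over all settings ITGA3 ran from 0.399 to 0.850, ITGA5 from 1.007 to 1.331, ITGA7 from -0.867 to -0.394, ITGA9 from 0.062 to 0.259, ITGB3 from 1.459 to 1.683 and ITGB5 from 0.879 to 1.143 on the log2 scale. Depth limits ITGB3, ITGB4, ITGA9 and ITGB7, whose counts stayed at or under 104 in any library.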

Other observations

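Proteins that sit beside integrins in the membrane were read from a list of 14 lateral partners and tetraspanins, all of them tested, with 12 higher in GFI1-KO and 1 lower; their median log2 fold change was 0.86, against 36.5% and 35.9% of all tested genes. With GC and length offsets 10 were higher and 3 lower, beside 33.2% and 27.2% of all genes in that fit. SDC4, the syndecan that binds fibronectin together with the ITGA5 receptor, rose from 625 ± 69.7 to 3059 ± 98.7 normalized counts (each the mean ± SD of n = 3 libraries), or by 2.29 on the log2 scale (adjusted p = 1.9e-22, edgeR). CAV1, caveolin 1, rose by 1.98 and LGALS3, galectin 3, by 1.70 (adjusted p = 3.5e-14 and 8.1e-21, edgeR). With offsets SDC4, CAV1 and LGALS3 were at 2.24, 2.17 and 1.42. The 1 lower gene was CD9, a tetraspanin, with 13.2 counts on average and a log2 fold change of -3.07, named after its value was seen.

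Of 18 genes for processing and trafficking of integrins 15 were tested, 9 higher and 5 lower (median 0.28) beside the same shares of all genes, and with offsets 11 were higher and 1 lower. FURIN, a protease that cleaves alpha chain precursors such as those of ITGAV and ITGA5, rose by 0.89, PCSK6, a related protease, by 0.83 and CALR, the chaperone calreticulin, by 0.76 (adjusted p = 7.5e-14, 2.4e-10 and 3.1e-17, edgeR). With offsets these rises were 0.29, 0.68 and 0.42. RAB11A, a small GTPase of recycling endosomes, fell by 0.51 on the log2 scale, EPS15, an endocytic adaptor, fell by 0.65 and RAB21, an integrin-binding endosomal GTPase, fell by 0.37 (adjusted p = 6.6e-13, 3.9e-11 and 1.6e-07, edgeR). With offsets RAB11A and EPS15 were at -0.01 and RAB21 rose by 0.35 (adjusted p = 5.6e-07, edgeR).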
